A study of Homo sapiens with 6 samples.

Results

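The genes described here are the translation factors, the proteins that start, drive and end protein synthesis on the cytosolic ribosome, measured as mRNA in U2OS cells after knockdown of SURF2. U2OS is an established human osteosarcoma line. Members were protein-coding rows of the count table chosen by symbol: EIF1 to EIF5 names without the EIF2AK kinases and EIF1AY, EEF1 and EEF2 names, and ETF1, GSPT1, GSPT2 and PABPC1. This gave 67 members among 58051 gene rows, of which 19737 were protein-coding. A filter on low counts left 63 members for testing. The libraries with SURF2 lowered (siSURF2, titled siSurf2, 3 replicates) received an siRNA against SURF2, and the control libraries (siSCR, 3 replicates) a scrambled siRNA. Both groups were the same line in the same serum-containing medium, given siRNA 2 times with an interval of 49 h over 96 h in all, and polyA RNA was sequenced. The labels do not say whether replicates came from different cultures. The p-values therefore reflect only how far these libraries scatter, which may be technical. The comparison asked which mRNAs differed when SURF2, presented by the study as an MDM2 antagonist in nucleolar stress, was lowered.

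Levels are given as CPM, the read count normalised to library size. SURF2 itself (chromosome 9, 133356552 to 133361169, GRCh38) had 3.74, 3.56 and 3.20 CPM in siSURF2 replicates 1, 2 and 3, against 36.2, 35.8 and 32.3 CPM in siSCR replicates 1, 2 and 3. The groups did not overlap, with a log2 fold change, siSURF2 over siSCR, of -3.31 ± 0.10 (SE) and an edgeR adjusted p of 3.7e-20. Counts assigned to genes ranged from 17123333 to 19688089 per library, so that 1 CPM was about 17.1 to 19.7 counts. Between siSURF2 replicate 2 and the other siSURF2 replicates, the chi-square per degree of freedom was 8.72 and 10.2. It was 2.51 to 4.41 for the remaining pairs of 1 group. The Pearson correlation of log2 CPM differed little, at 0.9927 and 0.9922 for the former pairs and 0.9926 to 0.9934 for the latter. Of 12 osteoblast lineage markers, 8 passed the filter, of which 5 were higher and 1 lower in siSURF2 cells, and the 12 summed to 68625 to 74448 counts in siSURF2 and 53797 to 62510 in siSCR libraries. VIM, SPARC, COL1A1 and RUNX2 were well detected, whereas IBSP had no count in any library, COL1A2 had 0 to 3 counts and SP7 0 or 1. Of 10 markers of other cell types, 4 passed the filter, of which 1 was higher and 2 lower, and the 10 summed to 203 to 231 counts in siSURF2 and 194 to 212 in siSCR libraries. The highest was EPCAM, with 164 to 173 counts in siSURF2 and 75 to 89 in siSCR libraries, and CD3E and ALB had no count. The part of these markers in the results below was not tested.

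Translation begins when eIF2 brings the initiator tRNA to the small ribosomal subunit, helped by eIF1, eIF1A, eIF3 and eIF5, while eIF2B recharges eIF2 with GTP. The cap of the mRNA is bound by eIF4E, which docks on the scaffold eIF4G together with the helicase eIF4A and the poly(A)-binding protein PABPC1, and 4E-BP proteins hold eIF4E away from eIF4G. After eIF5B joins the subunits, eEF1A delivers aminoacyl-tRNAs, the eEF1B complex recharges eEF1A, eEF2 moves the ribosome along, and eRF1 (ETF1) with eRF3 (GSPT1 or GSPT2) releases the finished chain. The mRNAs of several of these factors, eEF1A and eEF2 among them, start with a pyrimidine tract that couples their translation to mTORC1, as in mRNAs of ribosomal proteins.

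Most translation factor mRNAs that differed were lower in siSURF2 cells, and the changes were modest in size. Of the 63 members tested, 34 were lower, 11 higher and 18 were not called (edgeR, with a threshold of 0.05 on the p-value adjusted over all 17561 genes tested). The called share was 71.4%, against 52.0% of all genes tested. Lower calls made up 54.0% of members and 26.2% of all genes, and higher calls 17.5% and 25.8%. Of 49 members whose mean log2 CPM reached 5, 29 were lower and 9 higher (59.2% and 18.4%, or 77.6% called). Of the 6454 protein-coding genes at that level, 38.9% were lower and 27.5% higher (66.4% called). The median log2 fold change was -0.15 over the members tested, -0.05 over those abundant protein-coding genes and 0.0042 over all genes tested. The CPM values of the 2 groups did not overlap for 47 members, against 57.3% of all genes and 69.9% of the abundant protein-coding genes. Only 5 members were called with at least a 1.5-fold difference, namely EIF4A2 and EIF4G3, which were higher, and EEF2, EIF3J and EIF4A1, which were lower (7.94% of members, against 19.8% of all genes tested and 11.7% of the abundant protein-coding genes). All transcript bases of EIF4A1 also lie in exons of other gene rows. Among the 61 tested members with under 50% of transcript bases so shared, 4 were called at that size (6.56%). Errors given beside means are SDs over the 3 libraries of a group, and those beside log2 fold changes are SEs. Without siSURF2 replicate 2, 31 members were lower and 9 higher, and without siSURF2 replicate 1, 26 were lower and 11 higher. Summed, the 67 members held 3.03%, 3.14% and 3.05% of gene counts in siSURF2 replicates 1, 2 and 3, against 3.02%, 2.98% and 3.03% in siSCR replicates 1, 2 and 3. EEF1A1 alone supplied 236041 to 264399 counts per siSURF2 library and 187537 to 221318 per siSCR library. In RNA pooled from a culture, a lower level in every cell cannot be told apart from a loss of the mRNA in some cells.

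The number of calls, more than the size of the differences, moved with the scaling. With library sizes set by the total of the ERCC spike-in RNAs, 1 member was higher (EIF4A2) and 1 lower (EEF2). Spike-ins held 1.57%, 1.72% and 1.27% of counts in siSURF2 replicates 1, 2 and 3, against 1.72%, 1.59% and 1.12% in siSCR replicates 1, 2 and 3. The fold changes under that scaling stayed close to those above. The median over the members tested was -0.19, against -0.04 over all genes. Under either scaling 45 members lay below the median of all genes. A change of library sizes shifts all genes nearly alike, so that count cannot test the scaling. EIF2S1 had a log2 fold change of -0.62 (adjusted p = 0.12), EIF3J of -0.68 (adjusted p = 0.08) and EIF4G3 of 0.70 (adjusted p = 0.081). The direction was the same for every member tested except EIF3C.

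**Figure D1:**
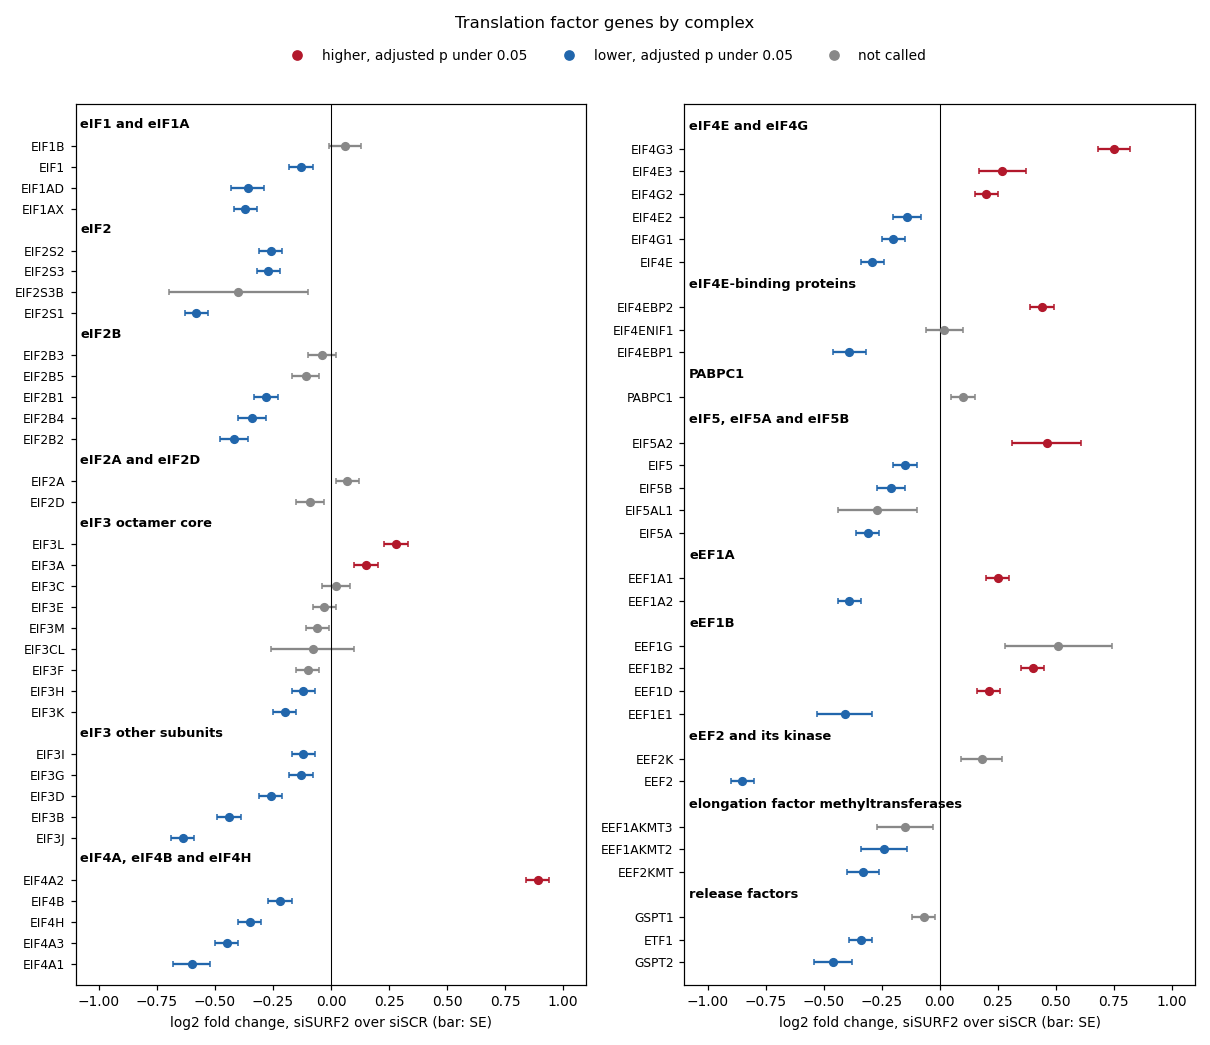
Log2 fold change of siSURF2 over siSCR (horizontal axis) for the 63 members tested, by complex, with bars for the standard error and colours for the edgeR call. Of these, 34 lie left of 0 in blue (lower), 11 right of 0 in red (higher), and the span runs from -0.85 for EEF2 to 0.89 for EIF4A2.

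The start-codon factors and the ternary complex were lower where they were called. Of the 4 genes grouped by name as eIF1 and eIF1A, EIF1AD among them, 3 were lower and none higher, with a median log2 fold change of -0.25. EIF1AX, which encodes eIF1A and supports scanning for the start codon, had 81.2, 89.4 and 81.6 CPM in siSURF2 replicates 1, 2 and 3, against 109, 107 and 109 CPM in siSCR replicates 1, 2 and 3 (log2 fold change -0.37 ± 0.05, adjusted p = 1.6e-06). Every siSURF2 library was below every siSCR library. EIF1AD, named for its eIF1A-like domain, had 38.9, 40.7 and 37.9 CPM in the siSURF2 libraries, against 50.5, 55.0 and 45.9 CPM in the siSCR libraries (log2 fold change -0.36 ± 0.07, adjusted p = 4.6e-05). EIF1, which guards the choice of start codon, had 421, 453 and 414 CPM in the siSURF2 libraries, against 469, 458 and 487 CPM in the siSCR libraries (log2 fold change -0.13 ± 0.05, adjusted p = 0.025), a small difference whose adjusted p was 0.1 under upper-quartile scaling, 0.056 without scaling factors, 0.094 without a filter, 0.15 without siSURF2 replicate 1 and 0.11 without siSURF2 replicate 3. Its paralog EIF1B had 32.2, 28.8 and 29.3 CPM in the siSURF2 libraries, against 27.8, 28.3 and 30.2 CPM in the siSCR libraries, was not called (log2 fold change 0.06 ± 0.07, adjusted p = 0.48) and had overlapping groups.

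All 3 subunits of eIF2, the GTPase that carries the initiator tRNA, were lower in siSURF2 cells. EIF2S1, the alpha subunit that stress kinases phosphorylate, had 286, 304 and 282 CPM in siSURF2 replicates 1, 2 and 3, against 437, 442 and 427 CPM in siSCR replicates 1, 2 and 3 (log2 fold change -0.58 ± 0.05, adjusted p = 4.7e-11). The gap between the groups was far wider than the spread within either. EIF2S3, the gamma subunit with the GTP site, had 162, 156 and 159.7 CPM in the siSURF2 libraries, against 192, 198 and 186 CPM in the siSCR libraries (log2 fold change -0.27 ± 0.05, adjusted p = 3.6e-05), and EIF2S2, the beta subunit, averaged 148 ± 10.6 CPM in siSURF2 cells and 177 ± 4.22 CPM in siSCR cells (log2 fold change -0.26 ± 0.05, adjusted p = 0.00014). Per kilobase of transcript, EIF2S1 averaged 64.9 ± 2.58, EIF2S2 55.6 ± 4.01 and EIF2S3 55.7 ± 1.11 CPM per kb in siSURF2 cells, against 97.0 ± 1.73, 66.8 ± 1.59 and 67.1 ± 2.14 CPM per kb in siSCR cells. On that scale the excess of EIF2S1 over the other subunits was smaller in siSURF2 cells. EIF2S3B, a close copy of EIF2S3, had 16 to 21 counts in siSURF2 and 21 to 24 in siSCR libraries and was not called (adjusted p = 0.28).

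eIF2B, the 5-subunit exchange factor that the phosphorylated form of eIF2 inhibits, had 3 lower subunits, 2 that were not called and none that was higher (median -0.28). EIF2B2, the beta subunit, had 55.4, 60.9 and 55.2 CPM in siSURF2 replicates 1, 2 and 3, against 80.8, 76.6 and 72.9 CPM in siSCR replicates 1, 2 and 3 (log2 fold change -0.42 ± 0.06, adjusted p = 7.7e-07). EIF2B4, the delta subunit, had 50.6, 52.7 and 53.3 CPM in the siSURF2 libraries, against 67.1, 67.4 and 63.1 CPM in the siSCR libraries (log2 fold change -0.34 ± 0.06, adjusted p = 1.6e-05), and EIF2B1, the alpha subunit, had a log2 fold change of -0.28 ± 0.05 (adjusted p = 5.2e-05). In each of these the groups were apart. The catalytic EIF2B5 and its partner EIF2B3 had log2 fold changes of -0.11 ± 0.06 (adjusted p = 0.11) and -0.04 ± 0.06 (adjusted p = 0.65). Of the transcript bases of EIF2B1 and EIF2B2, 22.8% and 29.3% also lie in exons of other gene rows. The initiation factors outside the main route, EIF2A and EIF2D, which can deliver tRNA without eIF2, were not called, with log2 fold changes of 0.07 ± 0.05 (adjusted p = 0.29) and -0.09 ± 0.06 (adjusted p = 0.19).

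**Figure D2:**
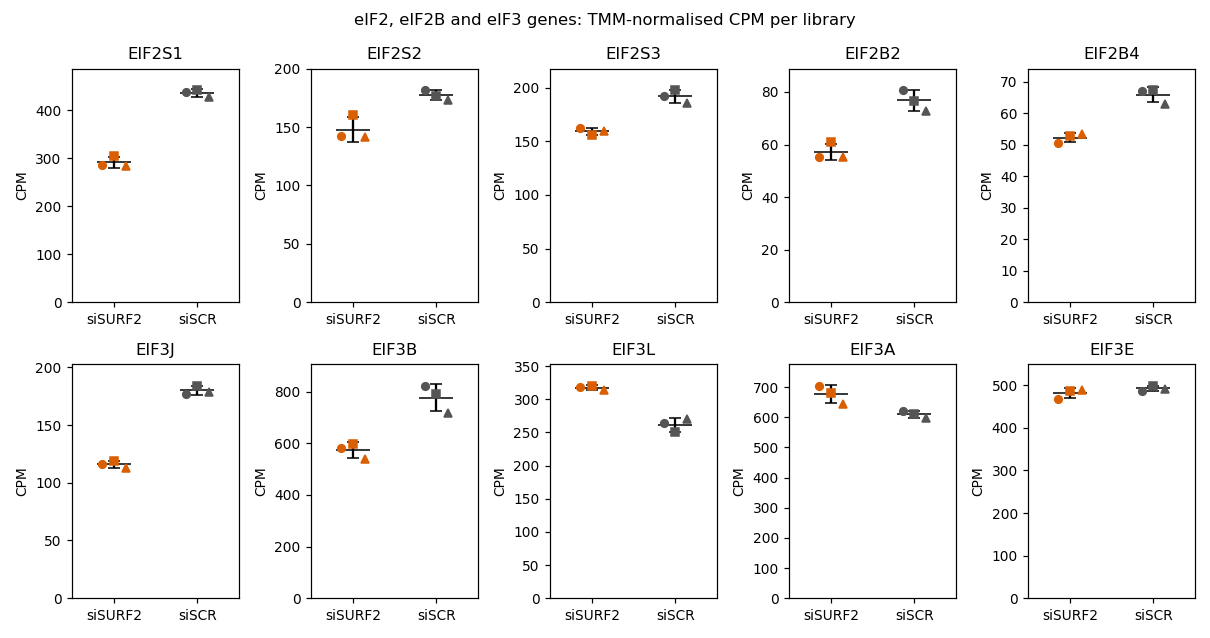
TMM-normalised CPM (vertical axes, from 0) per library for 10 genes of eIF2, eIF2B and eIF3, with siSURF2 left of siSCR, circles, squares and triangles for replicates 1, 2 and 3, and bars for mean and SD (n = 3). EIF2S1 and EIF3J have the largest log2 fold changes of the 10, at 291 against 435 CPM and 116 against 179.9 CPM, whereas EIF3L and EIF3A lie higher in siSURF2 libraries and EIF3E overlaps.

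eIF3, the largest initiation factor and the platform that binds the small subunit, was examined by part of the complex. Of the 5 subunits outside its octamer core, all were lower, with a median log2 fold change of -0.26. Of the 9 genes of the octamer core, 2 were higher, 2 lower and 5 not called, with a median of -0.06. The difference between these parts was described, not tested. EIF3J, a loosely bound subunit near the decoding centre, had 116, 119 and 112 CPM in siSURF2 replicates 1, 2 and 3, against 177, 184 and 179 CPM in siSCR replicates 1, 2 and 3 (log2 fold change -0.64 ± 0.05, adjusted p = 1.4e-11). EIF3B, a scaffold with a propeller domain, had 581, 599 and 539 CPM in the siSURF2 libraries, against 823, 789 and 718 CPM in the siSCR libraries (log2 fold change -0.44 ± 0.05, adjusted p = 8.8e-08). The values of both genes were lower in every siSURF2 library. EIF3D, a subunit able to bind the cap of some mRNAs, averaged 278 ± 11.7 CPM in siSURF2 cells and 334 ± 4.12 CPM in siSCR cells (log2 fold change -0.26 ± 0.05, adjusted p = 3.5e-05). EIF3G and EIF3I, partners of EIF3B, had log2 fold changes of -0.13 ± 0.05 (adjusted p = 0.041) and -0.12 ± 0.05 (adjusted p = 0.029), and neither call was stable. The adjusted p of EIF3G was 0.17 under upper-quartile scaling, 0.087 without scaling factors, 0.12 without a filter, 0.058 with DESeq2, 0.053 with limma-voom, 0.13 without siSURF2 replicate 1, 0.059 without siSURF2 replicate 2, 0.11 without siSURF2 replicate 3, 0.13 without siSCR replicate 1 and 0.21 without siSCR replicate 2. That of EIF3I was 0.13 under upper-quartile scaling, 0.069 without scaling factors, 0.14 without a filter, 0.19 without siSURF2 replicate 1, 0.074 without siSURF2 replicate 3, 0.054 without siSCR replicate 1 and 0.077 without siSCR replicate 2. The groups of EIF3G overlapped.

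Within the octamer core, EIF3L had 319, 320.5 and 313 CPM in siSURF2 replicates 1, 2 and 3, against 264, 250.3 and 271 CPM in siSCR replicates 1, 2 and 3 (log2 fold change 0.28 ± 0.05, adjusted p = 1.6e-05), although 44.8% of the bases of its transcript also lie in exons of other gene rows. EIF3A, the largest subunit and organiser of the core, had 705, 682 and 644 CPM in the siSURF2 libraries, against 620.1, 611 and 598 CPM in the siSCR libraries (log2 fold change 0.15 ± 0.05, adjusted p = 0.011). Both were higher in every siSURF2 library. EIF3K, like EIF3L absent from the budding yeast complex, had 95.9, 108 and 97.0 CPM in the siSURF2 libraries, against 117, 115 and 114 CPM in the siSCR libraries (log2 fold change -0.20 ± 0.05, adjusted p = 0.0024). EIF3H had 272, 287 and 276 CPM in the siSURF2 libraries, against 299, 294 and 313 CPM in the siSCR libraries (log2 fold change -0.12 ± 0.05, adjusted p = 0.042), and its adjusted p was 0.18 under upper-quartile scaling, 0.1 without scaling factors, 0.19 without a filter, 0.24 without siSURF2 replicate 1, 0.093 without siSURF2 replicate 3, 0.058 without siSCR replicate 2 and 0.084 without siSCR replicate 3. EIF3E, EIF3F and EIF3M were not called, with log2 fold changes of -0.03 ± 0.05 (adjusted p = 0.59), -0.10 ± 0.05 (adjusted p = 0.098) and -0.06 ± 0.05 (adjusted p = 0.36). EIF3C and EIF3CL, near-identical genes on chromosome 16 whose reads cannot be assigned with certainty, had log2 fold changes of 0.02 ± 0.06 and -0.08 ± 0.18, and neither was called. Per kilobase of transcript, EIF3E was the most abundant of the eIF3 mRNAs, at 312 ± 7.80 CPM per kb in siSURF2 and 319 ± 4.12 in siSCR cells. EIF3B was at 188 ± 10.1 CPM per kb in siSURF2 cells, below EIF3I at 229 ± 7.39, and at 254 ± 17.5 in siSCR cells, where EIF3I was at 250.2 ± 4.39. EIF3C lay at 12.7 ± 0.331 and 12.6 ± 0.660 CPM per kb, and EIF3CL below it.

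The helicase group showed the strongest contrast among the members. EIF4A2 (chromosome 3, 186783205 to 186789900), a paralog of the main cap-complex helicase, had 356, 348 and 400.1 CPM in siSURF2 replicates 1, 2 and 3, against 202, 197 and 196 CPM in siSCR replicates 1, 2 and 3. It was higher in every siSURF2 library, by 1.86-fold (log2 fold change 0.89 ± 0.05, adjusted p = 4.1e-14). The other 4 genes of the group were lower. EIF4A3, the helicase of the exon junction complex, had 122, 132 and 121 CPM in the siSURF2 libraries, against 177, 175 and 161 CPM in the siSCR libraries (log2 fold change -0.45 ± 0.05, adjusted p = 3.8e-08). EIF4H and EIF4B, which stimulate the helicase, averaged 432 ± 16.2 CPM in siSURF2 cells and 549 ± 13.4 CPM in siSCR cells and, for EIF4B, 837 ± 23.1 CPM in siSURF2 cells and 973 ± 21.0 CPM in siSCR cells (log2 fold changes -0.35 ± 0.05 and -0.22 ± 0.05, adjusted p = 6.9e-07 and 0.00034). EIF4A1, the main helicase, had 18.1, 18.3 and 19.3 CPM in the siSURF2 libraries, against 28.0, 31.2 and 25.4 CPM in the siSCR libraries (log2 fold change -0.60 ± 0.08, adjusted p = 5.5e-07). All bases of its transcript also lie in exons of 5 other gene rows, among them ENSG00000264772, and no counting rule for such reads is known here. Its level therefore cannot be read from these counts, and the part of this sharing in its fold change was not tested. The 13 processed pseudogene rows named after EIF4A1 held 80, 99 and 72 counts in siSURF2 replicates 1, 2 and 3, against 129, 159 and 158 in siSCR replicates 1, 2 and 3. Of these, EIF4A1P10 had 46, 68 and 41 counts in the siSURF2 libraries, against 86, 92 and 99 in the siSCR libraries. Whether these reads came from the EIF4A1 mRNA was not tested, so they are not taken as a separate measure of it.

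The cap-binding proteins and their scaffolds went both ways, 3 higher and 3 lower of 6 tested. EIF4G3, a less abundant eIF4G scaffold, had 64.1, 58.4 and 60.6 CPM in siSURF2 replicates 1, 2 and 3, against 38.3, 32.9 and 37.8 CPM in siSCR replicates 1, 2 and 3 (log2 fold change 0.75 ± 0.07, adjusted p = 1.5e-10). EIF4G2, which lacks the eIF4E site and serves cap-independent initiation, had 1513, 1628 and 1483 CPM in the siSURF2 libraries, against 1329.7, 1317 and 1370.5 CPM in the siSCR libraries (log2 fold change 0.20 ± 0.05, adjusted p = 0.00099). Both were above all siSCR values in every siSURF2 library. EIF4G1, the principal scaffold, had 660.0, 686 and 603 CPM in the siSURF2 libraries, against 750.2, 753 and 733 CPM in the siSCR libraries (log2 fold change -0.20 ± 0.05, adjusted p = 0.0018), and EIF4E, the cap-binding protein, 87.3, 89.5 and 94.3 CPM in the siSURF2 libraries, against 111, 115 and 105 CPM in the siSCR libraries (log2 fold change -0.29 ± 0.05, adjusted p = 5.5e-05). Both lay below all siSCR values. EIF4E2, a cap-binding paralog linked to repression, had 71.8, 73.0 and 72.0 CPM in the siSURF2 libraries, against 84.5, 81.2 and 73.7 CPM in the siSCR libraries (log2 fold change -0.14 ± 0.06, adjusted p = 0.04), and its adjusted p was 0.16 under upper-quartile scaling, 0.086 without scaling factors, 0.13 without a filter, 0.069 with DESeq2, 0.15 without siSURF2 replicate 1, 0.059 without siSURF2 replicate 2, 0.091 without siSURF2 replicate 3, 0.14 without siSCR replicate 1 and 0.15 without siSCR replicate 2. EIF4E3, another paralog, had 13.7, 15.6 and 13.8 CPM in the siSURF2 libraries, against 10.7, 11.3 and 13.7 CPM in the siSCR libraries (log2 fold change 0.27 ± 0.10, adjusted p = 0.033), and its adjusted p was 0.079 with DESeq2, 0.15 without siSURF2 replicate 2, 0.17 without siSCR replicate 1 and 0.11 without siSCR replicate 2. Of the transcript bases of EIF4E2, 33.7% also lie in exons of other gene rows. EIF4E1B, a paralog known from oocytes, had 0 or 1 count per library and was not tested. PABPC1, the cytosolic poly(A)-binding protein, averaged 2614 ± 144 CPM in siSURF2 cells and 2441 ± 56.5 CPM in siSCR cells and was not called (log2 fold change 0.10 ± 0.05, adjusted p = 0.098). Its adjusted p was 0.0074 under upper-quartile scaling, 0.024 without scaling factors and 0.021 without siSURF2 replicate 3.

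The 4E-BP proteins, which compete with eIF4G for eIF4E until mTORC1 phosphorylates them, moved apart. EIF4EBP2 had 217, 213 and 202 CPM in siSURF2 replicates 1, 2 and 3, against 159.9, 159 and 146 CPM in siSCR replicates 1, 2 and 3 (log2 fold change 0.44 ± 0.05, adjusted p = 3.3e-08). EIF4EBP1 had 83.1, 81.5 and 75.3 CPM in the siSURF2 libraries, against 116, 108 and 91.0 CPM in the siSCR libraries (log2 fold change -0.39 ± 0.07, adjusted p = 7.4e-05). The first was higher and the other lower in every siSURF2 library. EIF4ENIF1, the nuclear importer of eIF4E, had a log2 fold change of 0.02 ± 0.08 (adjusted p = 0.85). EIF4EBP3 had 5, 4 and 10 counts in siSURF2 replicates 1, 2 and 3, against 5 in each siSCR library, and was not tested. It shares 73.4% of its transcript bases with the readthrough row ANKHD1-EIF4EBP3.

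The late initiation factors were mostly lower. EIF5A, which relieves stalled ribosomes and carries the hypusine modification, had 732, 774 and 697 CPM in siSURF2 replicates 1, 2 and 3, against 961, 906 and 864 CPM in siSCR replicates 1, 2 and 3 (log2 fold change -0.31 ± 0.05, adjusted p = 1.2e-05). EIF5B, the GTPase that joins the subunits, had 196, 209 and 170.4 CPM in the siSURF2 libraries, against 215, 223 and 226 CPM in the siSCR libraries (log2 fold change -0.21 ± 0.06, adjusted p = 0.0042), with an adjusted p of 0.056 without siSURF2 replicate 3. EIF5, the GTPase activator of eIF2, averaged 233 ± 9.42 CPM in siSURF2 cells and 259 ± 7.22 CPM in siSCR cells (log2 fold change -0.15 ± 0.05, adjusted p = 0.012), with an adjusted p of 0.059 under upper-quartile scaling, 0.055 without a filter and 0.14 without siSURF2 replicate 1. Every siSURF2 value of these 3 genes lay below every siSCR value. EIF5A2, a paralog of EIF5A with low expression, had 8.19, 12.0 and 11.6 CPM in the siSURF2 libraries, against 6.37, 7.27 and 9.45 CPM in the siSCR libraries, with overlapping groups (log2 fold change 0.46 ± 0.15, adjusted p = 0.014). Its adjusted p was 0.07 without siSURF2 replicate 2, 0.053 without siSURF2 replicate 3, 0.083 without siSCR replicate 1 and 0.055 without siSCR replicate 2. EIF5AL1, a close copy of EIF5A, had 64 to 101 counts in siSURF2 and 83 to 110 in siSCR libraries and was not called (log2 fold change -0.27 ± 0.17, adjusted p = 0.2).

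The elongation factors held the largest fall of all members. EEF2 (chromosome 19, 3976056 to 3985469), which drives translocation of the ribosome, had 1361, 1370.0 and 1323 CPM in siSURF2 replicates 1, 2 and 3, against 2537, 2408 and 2355 CPM in siSCR replicates 1, 2 and 3. The groups were far apart, and the averages were 1351 ± 24.8 CPM in siSURF2 cells and 2433 ± 93.8 CPM in siSCR cells (SD, n = 3 each). The siSURF2 level was 0.555 times that in siSCR (log2 fold change -0.85 ± 0.05, adjusted p = 1.9e-14). EEF2K, the kinase that inactivates eEF2, averaged 17.8 ± 0.161 CPM in siSURF2 cells and 15.7 ± 2.08 CPM in siSCR cells with overlapping groups and was not called (log2 fold change 0.18 ± 0.09, adjusted p = 0.11). Its adjusted p was 0.049 under upper-quartile scaling and 0.015 without siSCR replicate 2.

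EEF1A1, the main carrier of aminoacyl-tRNA and the most abundant member, had 12981, 13501 and 13214 CPM in siSURF2 replicates 1, 2 and 3, against 11161, 10798 and 11363 CPM in siSCR replicates 1, 2 and 3 (log2 fold change 0.25 ± 0.05, adjusted p = 3.1e-05). EEF1A2, an isoform usually restricted to muscle and neurons, had 986, 941 and 923 CPM in the siSURF2 libraries, against 1332, 1282 and 1129 CPM in the siSCR libraries (log2 fold change -0.39 ± 0.05, adjusted p = 7.8e-07). The isoforms thus differed in direction, EEF1A1 higher and EEF1A2 lower in every siSURF2 library. Per kilobase of transcript, EEF1A1 averaged 2979.5 ± 58.7 and EEF1A2 472 ± 16.1 CPM per kb in siSURF2 cells, against 2501 ± 64.4 and 619 ± 52.4 CPM per kb in siSCR cells. The 49 processed pseudogene rows named after EEF1A1 held counts equal to 2.68% of its own in siSURF2 and 2.76% in siSCR libraries. Of the exchange complex eEF1B, EEF1B2, the catalytic alpha subunit, had 394, 401 and 397 CPM in the siSURF2 libraries, against 310.2, 291 and 302 CPM in the siSCR libraries (log2 fold change 0.40 ± 0.05, adjusted p = 4e-08). Of the transcript bases of EEF1D, the delta subunit, 32.7% also lie in exons of other gene rows. EEF1D had 316, 311 and 321 CPM in the siSURF2 libraries, against 269.7, 268 and 280.0 CPM in the siSCR libraries (log2 fold change 0.21 ± 0.05, adjusted p = 0.00035). Both were higher in every siSURF2 library. EEF1G, the gamma subunit, had only 40, 49 and 43 counts in siSURF2 replicates 1, 2 and 3, against 32, 27 and 29 in siSCR replicates 1, 2 and 3, and was not called (log2 fold change 0.51 ± 0.23, adjusted p = 0.066). Its adjusted p was 0.046 under upper-quartile scaling and 0.049 with the 1 CPM filter. Of its transcript bases 99.9% also lie in exons of the row ENSG00000255508, which held 44 to 57 counts in siSURF2 and 57 to 93 in siSCR libraries, so its level cannot be read from this table.

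EEF1E1, which despite its name is a scaffold of the multi-tRNA synthetase complex (also called AIMP3), had 7.92, 11.2 and 11.2 CPM in the siSURF2 libraries, against 13.2, 14.4 and 12.6 CPM in the siSCR libraries (log2 fold change -0.41 ± 0.12, adjusted p = 0.0049), with an adjusted p of 0.084 without siSURF2 replicate 1. Of its transcript bases 36.5% also lie in exons of the readthrough row EEF1E1-BLOC1S5, which had no count. All transcript bases of that readthrough row lie in exons of 3 other gene rows, so its level cannot be read from these counts. Of the 3 methyltransferases of elongation factors that were tested, 2 were lower and none higher. EEF2KMT, the methyltransferase of a lysine of eEF2, had 22.9, 25.7 and 23.3 CPM in the siSURF2 libraries, against 28.6, 32.1 and 29.7 CPM in the siSCR libraries (log2 fold change -0.33 ± 0.07, adjusted p = 0.00049), and 38.3% of its transcript bases overlap ALG1 on the opposite strand. EEF1AKMT2, which methylates eEF1A, had 13.5, 11.7 and 12.6 CPM in the siSURF2 libraries, against 13.7, 15.6 and 15.1 CPM in the siSCR libraries (log2 fold change -0.24 ± 0.10, adjusted p = 0.043), a call that 10 of 15 settings other than the spike-in scaling ended, with adjusted p-values of 0.11 under upper-quartile scaling, 0.074 without scaling factors, 0.12 without a filter, 0.1 with DESeq2, 0.057 under the replicate block, 0.053 without siSURF2 replicate 1, 0.15 without siSURF2 replicate 2, 0.082 without siSURF2 replicate 3, 0.18 without siSCR replicate 2 and 0.078 without siSCR replicate 3. Of the transcript bases of EEF1AKMT2, 43.0% also lie in exons of another gene row. EEF1AKMT3 was not called (log2 fold change -0.15 ± 0.12, adjusted p = 0.29) and EEF1AKMT1, with 0 to 4 counts, was not tested.

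**Figure D3:**
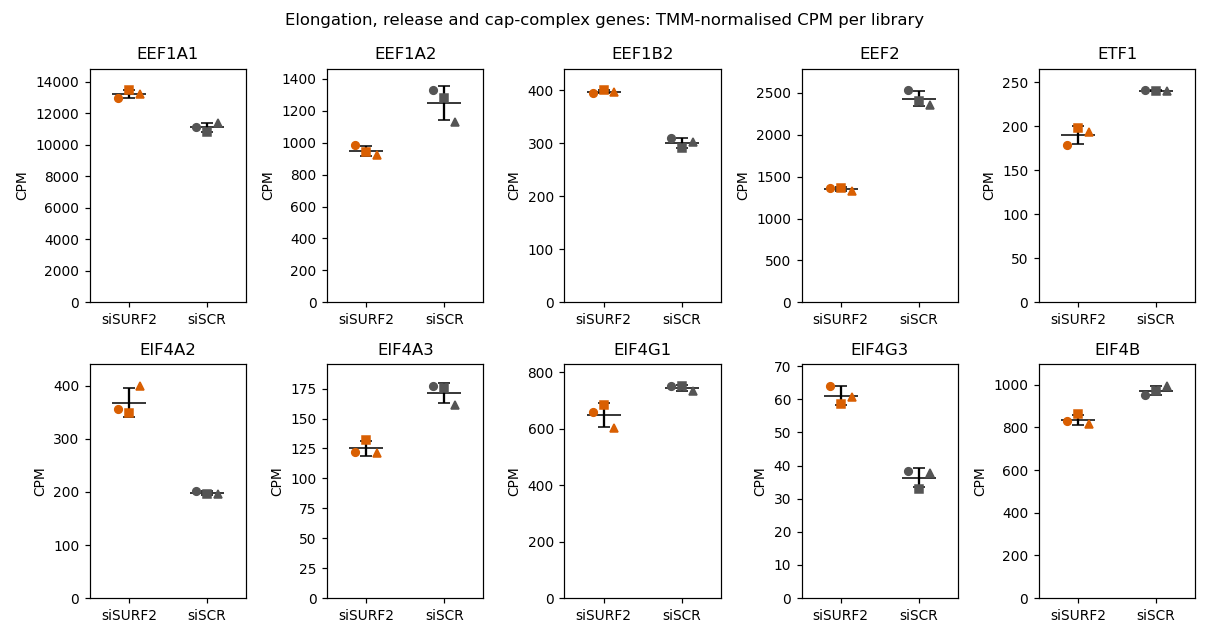
TMM-normalised CPM (vertical axes, from 0) per library for 10 genes of elongation, release and the cap complex, with siSURF2 left of siSCR, circles, squares and triangles for replicates 1, 2 and 3, and bars for mean and SD (n = 3). EEF2 sits at 1351 against 2433 CPM and EIF4A2 at 368 against 198 CPM, and EEF1A1 and EEF1A2 move in opposite directions.

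Termination factors were lower where called. ETF1, which reads the stop codons, had 178, 198 and 194 CPM in siSURF2 replicates 1, 2 and 3, against 242, 241 and 239.7 CPM in siSCR replicates 1, 2 and 3 (log2 fold change -0.34 ± 0.05, adjusted p = 1.5e-06). GSPT2, the retrogene form of the GTPase eRF3, had 20.6, 23.8 and 20.2 CPM in the siSURF2 libraries, against 30.2, 30.8 and 28.2 CPM in the siSCR libraries (log2 fold change -0.46 ± 0.08, adjusted p = 1.3e-05). In both, every siSURF2 library was below every siSCR library. GSPT1, the main eRF3, had 190.0, 198 and 183 CPM in the siSURF2 libraries, against 203, 196 and 198 CPM in the siSCR libraries, with overlapping groups and was not called (log2 fold change -0.07 ± 0.05, adjusted p = 0.27).

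Because paralogs can stand in for each other, the log2 ratio of CPM within each library was compared for 10 pairs. All 10 pairs had groups that did not overlap, although for EIF4E2 to EIF4E the nearest libraries of the groups were equal to 2 decimals, at -0.39. Singly, 57.3% of all genes and 69.9% of abundant protein-coding genes did not overlap, and the share over other gene pairs was not computed. Each pair had an exact two-sided permutation p of 0.10, the smallest that 3 against 3 libraries allow and the same after adjustment over the pairs, so none can pass a threshold of 0.05. The EIF4A2 to EIF4A1 log2 ratio was 4.30, 4.25 and 4.37 in the siSURF2 libraries, against 2.85, 2.66 and 2.95 in the siSCR libraries, a difference of 1.49 that carries the shared exons of EIF4A1. For EIF4G3 to EIF4G1 the log2 ratio was -3.36, -3.55 and -3.32 in the siSURF2 libraries, against -4.29, -4.51 and -4.28 in the siSCR libraries, a difference of 0.95. EIF4EBP2 to EIF4EBP1 gave 1.38, 1.39 and 1.42 in the siSURF2 libraries, against 0.47, 0.56 and 0.68 in the siSCR libraries, a difference of 0.83. In these pairs the paralog named first gained on the other in every siSURF2 library. The log2 ratios also differed by 0.77 for EIF5A2 to EIF5A, 0.57 for EIF4E3 to EIF4E, 0.40 for EIF4G2 to EIF4G1, 0.20 for EIF1B to EIF1 and 0.15 for EIF4E2 to EIF4E. In the opposite direction, EEF1A2 to EEF1A1 gave -3.72, -3.84 and -3.84 in the siSURF2 libraries, against -3.07, -3.07 and -3.33 in the siSCR libraries (difference -0.64), and GSPT2 to GSPT1 differed by -0.40.

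**Figure D4:**
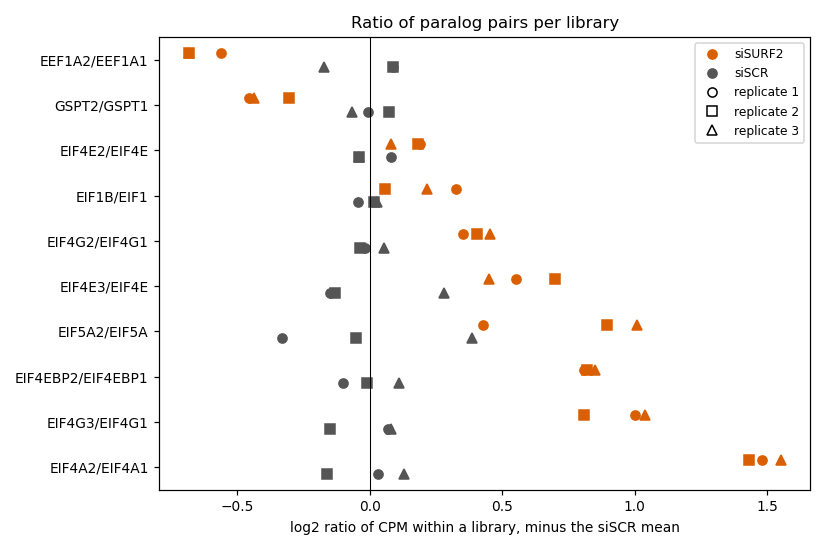
Log2 ratio of CPM of paralog pairs in each library, minus the siSCR mean of the pair (horizontal axis), with siSURF2 in orange above siSCR in grey and shapes for replicates. The siSURF2 points lie to the left of the siSCR points for EEF1A2/EEF1A1 and GSPT2/GSPT1 and to the right for the other 8 pairs, with the nearest points of EIF4E2/EIF4E both at a ratio of -0.39 before the siSCR mean is taken off.

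The starts of the transcripts were read from a set of RefSeq promoters of GRCh38.p14, and this set held 53 of the 67 members. A start tract was counted where an annotated start is a C followed by at least 4 more C or T without a break, on the sense strand. It was found in 13 of 53 members (24.5%), against 5.14% of all genes and 7.35% of protein-coding genes tested in this table. The windows below run from 10 bases before to 20 bases from the start, with the tract in capitals (for EEF1B2, at 1 annotated start). They show that members with such a start were higher, lower or not called. EIF2A, EIF2D and EIF2S3B also had a tract and were not called, and their windows are not printed.
Higher in siSURF2 cells:
EIF4A2 (chr3:186783567-186783596, plus strand): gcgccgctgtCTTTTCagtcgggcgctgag
EEF1B2 (chr2:206159885-206159914, plus strand): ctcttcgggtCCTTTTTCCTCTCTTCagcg
EEF1A1 (chr6:73521013-73521042, minus strand): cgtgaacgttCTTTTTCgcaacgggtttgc
Lower in siSURF2 cells:
EEF2 (chr19:3985444-3985473, minus strand): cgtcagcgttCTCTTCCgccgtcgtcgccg
EIF2S3 (chrX:24054946-24054975, plus strand): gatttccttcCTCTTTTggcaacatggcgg
EIF3D (chr22:36529147-36529176, minus strand): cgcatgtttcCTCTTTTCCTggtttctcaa
EIF4B (chr12:53006446-53006475, plus strand): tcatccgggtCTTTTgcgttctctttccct
EIF3K (chr19:38619178-38619207, plus strand): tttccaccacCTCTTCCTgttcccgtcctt
Not called:
EIF3F (chr11:7987327-7987356, plus strand): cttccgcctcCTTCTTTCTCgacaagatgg
EIF3M (chr11:32583821-32583850, plus strand): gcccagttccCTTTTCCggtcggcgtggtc
For comparison, lower members without a tract at the annotated start:
EIF2S1 (chr14:67360318-67360347, plus strand): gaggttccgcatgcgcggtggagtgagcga
EIF3J (chr15:44537137-44537166, plus strand): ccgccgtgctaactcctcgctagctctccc

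Of the 13 members with a start tract, 3 were higher, 5 lower and 5 not called, with log2 fold changes from -0.85 for EEF2 to 0.89 for EIF4A2 and a median of -0.10. Their called share of 61.5% lay near the 52.0% of all genes tested and the 66.4% of abundant protein-coding genes. Of the 37 tested members with a RefSeq start and no tract, 5 were higher, 23 lower and 9 not called (75.7% called, median -0.21). A list of 10 members long known as mRNAs with such tracts is not the same class. The tract was found in 5 of them (EEF1A1, EEF1B2, EEF2, EIF3F and EIF4B) and not at the RefSeq start of EEF1G. EEF1D, EIF3E, EIF3H and PABPC1, all on chromosome 8, were absent from the promoter set used, so their starts were not read. Of these 10 (60.0% called), EEF1A1, EEF1B2 and EEF1D were higher and EEF2, EIF4B and EIF3H lower, with a median of 0.03. With upper-quartile scaling 5 of the 10 were higher and 2 lower. EEF1G, EIF3E, EIF3F and PABPC1 were not called. TPT1, a mRNA of the same class outside the symbol rule, is given with the regulators below. EEF1A1 and EEF2, whose tracts are both 7 bases long, had log2 fold changes of 0.25 and -0.85. The 6-base sequence CACGTG, read the same on both strands and bound by MYC and TFE family factors, was in the window of 250 bases before to 50 after an annotated start in 12 of 53 members (22.6%), against 8.77% of all genes and 12.4% of protein-coding genes tested. Of 11 tested members with it, 1 was higher and 6 lower (63.6% called, median -0.20). Of 39 without it, 7 were higher and 22 lower (74.4% called, median -0.21). A match of letters describes these windows and no binding.

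Introns of some members carry genes of small nucleolar RNAs, the guides of ribosomal RNA modification. By GENCODE release 29, 9 members held at least 1 such gene on their own strand. All 9 were called, against 52.0% of all genes tested, 66.4% of abundant protein-coding genes and 77.6% of members whose mean log2 CPM reached 5. EIF4A2, EEF1B2, EIF4G2 and EIF3A were higher and EEF2, EIF4A1, EIF1AX, EIF4G1 and EIF5 lower (median -0.15). Of the 54 tested members without one, 7 were higher, 29 lower and 18 not called (median -0.15). Calls of at least 1.5-fold made up 33.3% of the 9 members with such a gene (EIF4A2, EEF2 and EIF4A1) and 3.7% of those without one (EIF3J and EIF4G3). The share was 19.8% over all genes tested and 11.7% over abundant protein-coding genes. All transcript bases of EIF4A1 are shared with other gene rows.

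**Figure D5:**
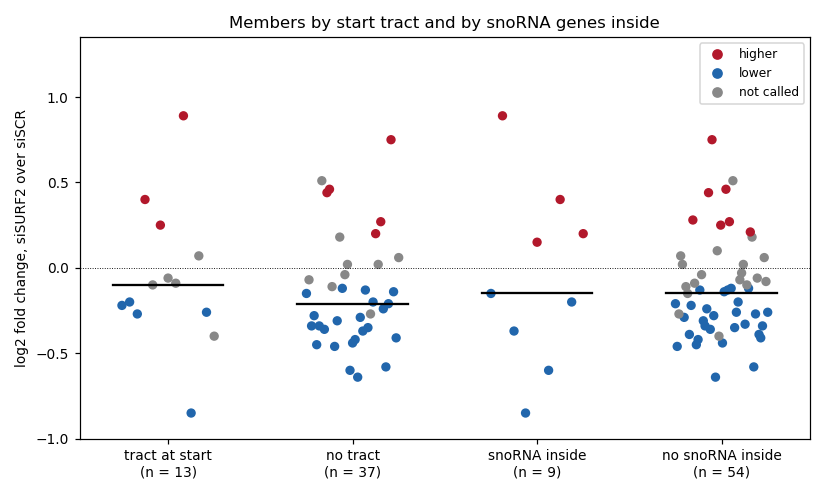
Log2 fold change of siSURF2 over siSCR (vertical axis) for members with and without a pyrimidine tract at an annotated start, and with and without a snoRNA gene inside, each point 1 gene, coloured by call, with lines at the medians. The medians are -0.10 and -0.21 for the tract, and -0.15 and -0.15 for snoRNA genes, and each class holds higher and lower members.

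The regulators and modifying enzymes of these factors, a list of 49 genes outside the symbol rule, were all tested. Of these, 12 were higher, 17 lower and 20 not called, with a median of -0.09. The called share of 59.2% lay near the 52.0% of all genes tested. EEFSEC, which delivers the selenocysteine tRNA, had 19.7, 21.9 and 20.3 CPM in siSURF2 replicates 1, 2 and 3, against 12.1, 12.4 and 10.7 CPM in siSCR replicates 1, 2 and 3 (log2 fold change 0.82 ± 0.09, adjusted p = 1.6e-08). MKNK2, a kinase of eIF4E, had 134, 132 and 119 CPM in the siSURF2 libraries, against 95.1, 88.9 and 76.3 CPM in the siSCR libraries (log2 fold change 0.57 ± 0.07, adjusted p = 2.9e-07). TPT1, a small protein encoded by a start-tract mRNA, had 1439.6, 1488 and 1479.6 CPM in the siSURF2 libraries, against 1155, 1144 and 1164 CPM in the siSCR libraries (log2 fold change 0.35 ± 0.05, adjusted p = 3.6e-07). These 3 were higher in every siSURF2 library. DPH2, which acts in making the diphthamide residue of eEF2, had 59.6, 63.8 and 58.2 CPM in the siSURF2 libraries, against 97.3, 95.5 and 86.8 CPM in the siSCR libraries (log2 fold change -0.62 ± 0.06, adjusted p = 6.2e-10). DOHH, which completes the hypusine residue of eIF5A, had 5.44, 7.69 and 5.85 CPM in the siSURF2 libraries, against 16.5, 15.6 and 14.2 CPM in the siSCR libraries (log2 fold change -1.28 ± 0.12, adjusted p = 6.9e-10). PAIP2, an inhibitor of PABPC1, had 83.9, 77.9 and 82.1 CPM in the siSURF2 libraries, against 112, 112 and 116 CPM in the siSCR libraries (log2 fold change -0.48 ± 0.05, adjusted p = 1.1e-08). All 3 were lower in every siSURF2 library. Of the other 6 diphthamide genes listed, DPH3 and DPH7 were higher (log2 fold changes 0.41 ± 0.07 and 0.29 ± 0.08, adjusted p = 2.7e-05 and 0.0035), and DPH1, DPH5, DPH6 and DNAJC24 were not called. DHPS, the enzyme before DOHH in the hypusine route, was not called (log2 fold change 0.05 ± 0.07, adjusted p = 0.59). Of the eIF2 kinases, EIF2AK1 and EIF2AK4 were higher (log2 fold changes 0.20 ± 0.05 and 0.19 ± 0.05, adjusted p = 0.0016 and 0.0037), and EIF2AK2 and EIF2AK3 were not called (log2 fold changes -0.11 ± 0.05 and -0.08 ± 0.09). PPP1R15A, the inducible subunit of the eIF2 phosphatase, averaged 56.2 ± 1.61 CPM in siSURF2 cells and 56.2 ± 1.74 CPM in siSCR cells and was not called, while its constitutive counterpart PPP1R15B was lower (log2 fold change -0.29 ± 0.06, adjusted p = 9.9e-05). The other diphthamide genes, the eIF2 kinases, the phosphatase subunits and DHPS were named after their values were seen.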

How the data were processed

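The 6 polyA RNA libraries of U2OS cells comprised 3 siSURF2 and 3 siSCR. The authors deposited raw read counts per Ensembl gene in 1 table, with 92 ERCC spike-in rows and no normalization. The submitters' processing notes list GRCh38, STAR 2.5.2b and fastp 0.23.1. How reads were assigned to genes (tool, annotation, strand, shared reads) was not given in the sources used here. A gene name table gave symbols for 56948 of 58051 rows and GENCODE release 29 for another 499, and GENCODE gave gene types and exons. Library sizes and tests left the ERCC rows out.

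Genes passing filterByExpr (minimum count 10, minimum total 15) were scaled with TMM factors and tested with edgeR 4.0.16's quasi-likelihood test in R 4.3.3 (robust, 1 term for the group, all 6 libraries), adjusting by Benjamini-Hochberg across the 17561 genes with 0.05 as threshold. All adjusted p-values are from that test unless another tool is named. CPM values are TMM-normalised, errors beside means are SDs over 3 libraries, and errors beside log2 fold changes are SEs. CPM per kb divides by 1 transcript per gene, taken by APPRIS class, RefSeq match and support level. On simulated counts for this comparison (17234 genes in the fit), 50 genes were altered at each fold. The test found 58% of the genes altered 1.3-fold, 88% of those altered 1.5-fold and 100% of those altered 2-fold or 4-fold. It made 17 false calls among the unaltered genes. In the data 52.0% of genes tested were called, a far larger share than was altered in the simulation, so these rates may not hold there. Alternatives tried were RLE, upper-quartile, no and spike-in scaling, other filters, DESeq2 1.42.0, limma-voom (limma 3.58.1), a non-robust prior, a replicate block and leaving out each library. Paralog ratios were also computed with 0.5 counts added.

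Values in every library are given for up to 2 members per complex and direction with the smallest adjusted p, for both members of paralog pairs, and for up to 3 regulators per direction. The members, complexes and lists were chosen with earlier results of these data known. No test was made of a list.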

Additional observations from a re-analysis of the deposited data

How the results depend on the processing

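Under the 15 settings other than spike-in scaling, 26 to 34 members were lower and 9 to 14 higher, against 34 and 11 in the reported fit. Leaving out 1 library gave 26 to 32 lower and 9 to 11 higher members, and 3878 to 4574 lower and 4082 to 4292 higher genes. Without siSURF2 replicate 2, the library with the larger chi-square values within its group, 31 members were lower and 9 higher. Without the 4 members that share at least 50% of their transcript bases with other gene rows, a choice made after seeing the data, 33 were lower and 11 higher. Spike-in scaling left 1 lower and 1 higher member, and 825 lower and 802 higher genes, and ended 48 of the 52 calls among 70 single genes. The fold changes themselves moved little, with a median of -0.19 over the members and -0.04 over all genes, and with EIF3J at -0.68, EIF2S1 at -0.62, DPH2 at -0.66 and EEFSEC at 0.79. Of 10 members long known for start tracts, 5 were higher with upper-quartile scaling, and with spike-in scaling 0 were higher and 1 lower. Log2 fold changes changed sign only in 5 genes that were not called. EIF2B3 and EIF3E were both at 0.01 with upper-quartile scaling, and EIF3C was at -0.02 with spike-in scaling. Without 1 library each, the values spanned -0.03 to 0.04 for EIF3C, -0.19 to 0.11 for EIF3CL, -0.05 to 0.0044 for EIF3E and -0.08 to 0.09 for EIF4ENIF1. Same-numbered libraries correlated at 0.00352, -0.0918 and -0.0389 in their deviations from the group mean, against -0.0755 to 0.118 for differently numbered libraries. No pairing by replicate number was seen, which cannot show how the libraries were prepared. With the replicate block 33 members were lower and 11 higher. With 0.5 counts added, the differences of the paralog ratios kept their sign. Counts limit EIF3CL, EIF2S3B, EIF5AL1 and EEF1G, each at 16 to 110 counts per library.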
